A study of Rattus norvegicus with 8 samples.

Results

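The matrix metalloproteinases and their tissue inhibitors examined here were 10 genes, taken by gene symbol from the 14506 genes measured by features with a single symbol. They comprised 6 Mmp genes (Mmp2, Mmp3, Mmp9, Mmp14, Mmp15 and Mmp16) and 4 Timp genes (Timp1, Timp2, Timp3 and Timp4), and each had 1 feature on the array. Their transcripts were compared between FGF9-treated and control cultures within same-numbered arrays, after 24 h and after 10 days. The RNA came from Sprague-Dawley rat spinal cord cultures, dissociated from embryos and grown until axons acquire myelin. The 4 groups were untreated cultures (control) and cultures given human fibroblast growth factor 9 (FGF9) at 100 ng/ml, each collected at 24 h and at 10 days, measured on 8 Affymetrix Rat Gene 1.0 ST arrays, 2 per group. In the labels the source field reads as astrocytes grown from neurospheres, whereas title and cell type both say myelinating culture, which is followed here. Nothing in the labels says that replicates came from separate cultures, so p-values measure only the spread between these arrays, which may be technical.

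Matrix metalloproteinases are zinc-dependent endopeptidases made as inactive precursors. They cut components of the extracellular matrix, cell surface proteins, growth factors and cytokines, and Timps block them by occupying the active site. Mmp2, Mmp3 and Mmp9 are secreted, whereas Mmp14, Mmp15 and Mmp16 are membrane-type enzymes held at the cell surface, where Mmp14 together with Timp2 activates the precursor of Mmp2. In the central nervous system Timp1 is a gene that reactive astrocytes switch on, and Mmps take part in the extension of oligodendrocyte processes and in matrix turnover after injury.

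The arrays carry name prefixes that the labels do not explain. Same-numbered control and FGF9 arrays share one and are treated as a pair: CL1 (24 h, pair 1), CL2 (24 h, pair 2, and 10 days, pair 1) and AA1 (10 days, pair 2). The AA1 arrays stood apart, correlating at 0.968 with each other and at 0.897 to 0.939 with the 6 others. Transcripts of neurons, of myelin and of astrocytes were present on every array, with marker means of at least 9.89, 8.74 and 10.67 on the deposited log2 scale, on which array medians ran from 6.62 to 6.73. Astrocyte markers were lower with FGF9 in both 24 h pairs for 8 of 8 genes, against 32.9% of all genes. Their means were 11.60 and 11.69 in controls and 11.00 and 10.67 with FGF9. In limma 0 passed. At an unadjusted p under 0.05 there were 4, and 7 with the prefix as a block in the fit (12.4% of all genes). Means of neutrophil markers lay between 5.00 and 5.30, with 3 of the 4 (S100a8, S100a9 and Mpo) below each array's 25th percentile on all 8 arrays. Because these are mixed cultures, fewer cells of a type and less RNA per cell cannot be told apart.

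Promoter sequences are shown for the 6 members that RefSeq's table (build GRCr8) held, Mmp3, Mmp15 and the 4 Timps, so that windows with and without the motifs searched stand side by side, whatever the response of the gene. The 250 bases before each start were searched on both strands for TGAGTCA, the AP-1 site bound by Fos and Jun proteins, for AGGAAG, a site of PEA3-class ETS factors, and for TGAGTAA, an AP-1 variant added after the sequences had been seen. Capitals mark the matches, each sequence runs 5′ to 3′ along the gene's own strand, and a match is a description of letters only.
Timp1: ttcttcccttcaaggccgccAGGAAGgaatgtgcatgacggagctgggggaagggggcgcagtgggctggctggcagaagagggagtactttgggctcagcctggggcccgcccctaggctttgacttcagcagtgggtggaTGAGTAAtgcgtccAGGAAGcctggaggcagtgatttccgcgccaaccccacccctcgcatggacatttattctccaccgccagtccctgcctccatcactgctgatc
Timp4: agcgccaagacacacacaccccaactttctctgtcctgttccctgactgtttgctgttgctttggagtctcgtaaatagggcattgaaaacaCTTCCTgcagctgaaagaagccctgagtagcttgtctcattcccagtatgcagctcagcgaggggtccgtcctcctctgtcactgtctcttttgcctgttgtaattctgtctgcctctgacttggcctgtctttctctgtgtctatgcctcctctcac
Mmp3: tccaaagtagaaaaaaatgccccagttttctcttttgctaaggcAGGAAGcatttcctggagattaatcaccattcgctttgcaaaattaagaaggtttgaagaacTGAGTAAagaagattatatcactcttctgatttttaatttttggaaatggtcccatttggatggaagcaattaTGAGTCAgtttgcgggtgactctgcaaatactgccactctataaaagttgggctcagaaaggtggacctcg
Timp2: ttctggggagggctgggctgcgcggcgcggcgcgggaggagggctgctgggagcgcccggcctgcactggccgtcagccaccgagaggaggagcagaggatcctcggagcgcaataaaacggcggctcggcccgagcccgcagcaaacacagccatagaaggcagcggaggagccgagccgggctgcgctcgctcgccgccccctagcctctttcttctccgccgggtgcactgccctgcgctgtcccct
Timp3: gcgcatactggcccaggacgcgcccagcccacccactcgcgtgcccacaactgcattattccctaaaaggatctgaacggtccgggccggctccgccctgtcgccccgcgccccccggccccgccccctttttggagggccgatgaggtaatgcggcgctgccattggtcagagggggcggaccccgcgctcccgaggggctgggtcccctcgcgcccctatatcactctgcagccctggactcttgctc
Mmp15: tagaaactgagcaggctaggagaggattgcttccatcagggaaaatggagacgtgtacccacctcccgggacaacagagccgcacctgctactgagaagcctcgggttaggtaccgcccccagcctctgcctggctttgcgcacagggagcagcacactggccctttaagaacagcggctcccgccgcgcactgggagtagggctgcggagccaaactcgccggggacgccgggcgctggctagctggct
The Timp1 window (chrX:3771123-3771372, minus strand) held AGGAAG at 230 to 225 and at 94 to 89 bases before the start and TGAGTAA at 108 to 102. The Timp4 window (chr4:149985205-149985454, minus strand) held 1 AGGAAG, on the opposite strand, at 158 to 153 bases before the start. The Mmp3 window (chr8:12925031-12925280, plus strand) held TGAGTCA at 71 to 65, TGAGTAA at 144 to 138 and AGGAAG at 206 to 201 bases before the start. None of the 3 motifs was found in the Timp2 window (chr10:104089215-104089464, minus strand), nor in those of Timp3 (chr7:19459559-19459808, minus strand) and Mmp15 (chr19:9691001-9691250, minus strand). Over all 33469 promoters of the table, windows of the same length held TGAGTCA in 4.05%, AGGAAG in 29.5% and TGAGTAA in 2.38%. The windows also differed in base composition, with 38.8% G and C in Mmp3, 50.8% in Timp4, 61.2% in Timp1 and 72% in Timp2.

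**Figure D1:**
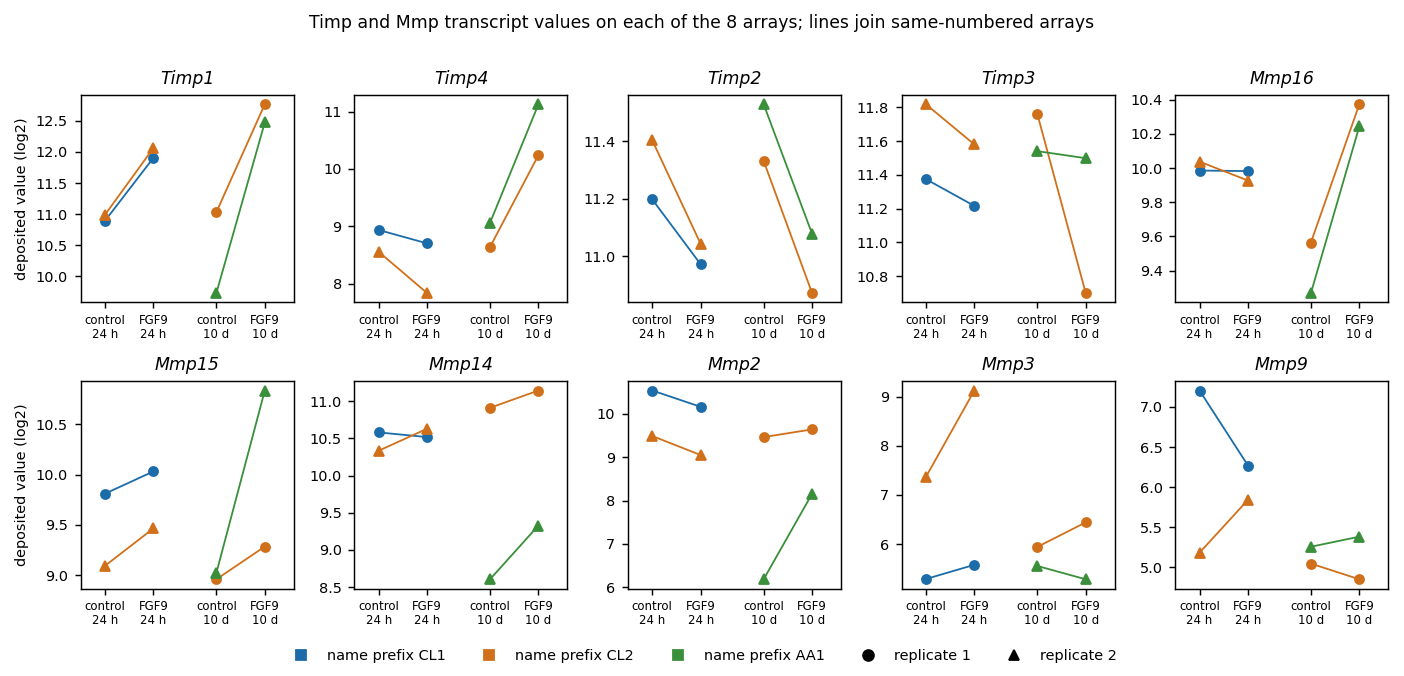
Deposited log2 value (vertical axis, scaled separately for each gene) of the 10 Mmp and Timp transcripts on each of the 8 arrays, with lines joining same-numbered control and FGF9 arrays; colours are name prefixes and symbols replicate numbers. Timp1 was higher with FGF9 in all 4 pairs, Timp2 lower in all 4, and Timp4 and Mmp16 were higher only in the 10-day pairs.

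The early comparison asked which members differed after 24 h of FGF9. Timp1 and Mmp3 had the largest differences among the 10, at 1.04 and 1.02 log2 units, and neither passed the test; 1.48% of all genes differed by at least 1 log2 unit. With limma's p-values adjusted across the 14506 genes by Benjamini-Hochberg (threshold 0.05), 0 of 10 members passed, as did 0% of all genes, both without a block and with the array prefix as a block. At an unadjusted p under 0.05 there was 1 member without the block, Timp1. Of all genes 280 lay there, fewer than the 725 expected by chance. With the block there were 3 members (Timp1, Timp4 and Mmp3), against 12.4% of all genes. By direction 3 members were higher in both pairs (31.8% of all genes were) and 5 lower in both (32.9%). Both FGF9 arrays lay above both controls for Timp1 alone (17.5% of all genes) and below both for Timp2 and Mmp16 (14.5%). The median difference over the members was -0.10, and over all genes it was -0.00.

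The late comparison asked the same after 10 days of FGF9. Timp1, Timp4 and Mmp16 rose with the prefix as a block and none of the 10 fell, whereas without the block 0 members and 0% of all genes passed. At an unadjusted p under 0.05 without the block there were 4 members and 816 of all genes. By chance 725 were expected, in this as in every comparison. With the block there were 7 members, against 24.0% of all genes. The 3 of 10 that rose stand beside 6.43% of all genes that passed in either direction with the block and 3.12% that rose, and the 0 of 10 that fell beside 3.31%. The call for these 3 genes thus rests on the fit with the block, which leaves the log2 difference as it is and takes the differences between pairs out of its error. Of the members 6 were higher in both pairs (33.2% of all genes) and 2 lower in both (30.0%). Both FGF9 arrays lay above both controls for Timp1, Timp4, Mmp16 and Mmp15 (14.9% of all genes) and below both for Timp2 and Timp3 (11.3%). A difference of at least 1 log2 unit was found for 4 members, Timp1, Timp4, Mmp2 and Mmp15, against 4.50% of all genes, and the median over the members was 0.68 against 0.02 over all genes.

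**Figure D2:**
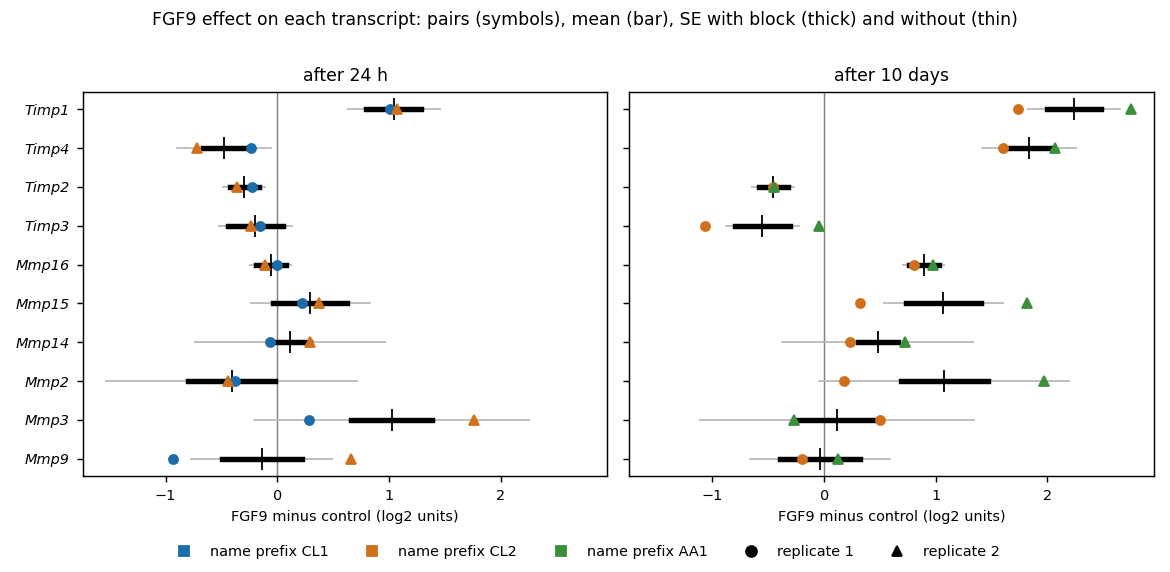
FGF9 minus control in log2 units (horizontal axis) for each of the 10 transcripts after 24 h (left) and 10 days (right); symbols are the 2 pairs, short vertical bars their mean, thick lines the SE with the prefix as a block and thin lines the SE without it. For Timp1 the pairs lie at 1.01 and 1.07 at 24 h and at 1.74 and 2.74 at 10 days, while for Mmp2 and Mmp15 the 10-day pairs lie far apart.

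Timp1, a secreted inhibitor of most soluble Mmps, had the largest mean difference of the 10 members at both times. At 24 h it stood at 10.89 and 10.99 in the controls and at 11.91 and 12.06 with FGF9. At 10 days the controls stood at 11.03 and 9.73 and the FGF9 arrays at 12.77 and 12.47. All 4 FGF9 arrays lay above all 4 controls, and the lowest value was the AA1 control at 10 days. The difference was 1.04 ± 0.41 log2 units at 24 h (SE without the block, n = 2 per group; 1.01 and 1.07 in the pairs), or 2.06-fold, and did not pass (adjusted p = 1; with the block SE 0.24, adjusted p = 0.223). At 10 days Timp1 rose by 2.24 ± 0.41 (1.74 and 2.74 in the pairs), or 4.72-fold, with adjusted p = 0.0173 with the block (SE 0.24, 95% interval 1.64 to 2.84) and 0.397 without it. Without the AA1 arrays it was 1.74, from 1 array per group. Only 0.303% of all genes had a larger absolute difference at 10 days. The effect was larger at 10 days than at 24 h by 1.20 ± 0.58, which did not pass (adjusted p = 0.273 with the block). Markers of dividing cells moved the same way, with 4 of 4 measured (Top2a, Cdk1, Ccnb1 and Bub1) higher with FGF9 in every pair (14.2% of all genes). Of these 0 passed in limma at either time, with or without the block. Their mean ran from 6.94 to 8.73 in controls and 8.35 to 9.75 with FGF9 at 24 h, and from 5.94 to 7.35 and 7.52 to 7.64 at 10 days. Their part in the result was not tested.

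Timp4, an inhibitor whose expression is more restricted than that of the other Timps and includes the brain, differed in direction between the times. At 24 h it stood at 8.94 and 8.56 in the controls and at 8.70 and 7.84 with FGF9, so the groups overlapped. At 10 days it stood at 8.64 and 9.06 in the controls and at 10.24 and 11.13 with FGF9, and both FGF9 arrays lay above every other array. The 24 h difference of -0.48 ± 0.42 (-0.23 and -0.72 in the pairs) did not pass (adjusted p = 0.394 with the block). At 10 days Timp4 rose by 1.83 ± 0.42 (1.60 and 2.07 in the pairs), or 3.56-fold. In limma its adjusted p was 0.0173 with the block (SE 0.19) and 0.536 without it. Without the AA1 arrays the difference was 1.60, from 1 array per group. The difference between the FGF9 effects at the 2 times was 2.31 ± 0.59 and did not pass (adjusted p = 0.109 with the block). For this difference of effects 0 of 10 members passed in limma with or without the block, beside 0.0483% of all genes with it and 0% without; 2 members and 276 of all genes lay at an unadjusted p under 0.05 without the block, and 4 members and 1866 of all genes with it. Prefix CL2 was present at both times, and within it Timp4 differed between 10 days and 24 h by 2.40 with FGF9 and by 0.08 in controls. Oligodendrocyte precursor markers (5 of 6 measured) had a mean of 8.76 to 8.84 in controls and 9.39 to 9.86 with FGF9 at 10 days. In limma 1 of the 5, Cspg4, rose with the block (3.12% of all genes), and 0 passed without it. Pdgfra went the other way, at -0.52 and -0.01 in the pairs. Higher in both pairs were 4 of these 5 and 2 of 8 astrocyte markers, against 33.2% of all genes. Their part in the result was not tested.

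Timp2, which both inhibits Mmps and helps Mmp14 to activate the Mmp2 precursor, was lower with FGF9 in all 4 pairs. It stood at 11.20 and 11.40 in controls and 10.97 and 11.04 with FGF9 at 24 h, and at 11.33 and 11.53 against 10.87 and 11.08 at 10 days. The groups did not overlap at either time. The differences were small, at -0.29 ± 0.19 at 24 h (-0.23 and -0.36 in the pairs) and -0.46 ± 0.19 at 10 days (-0.46 and -0.45 in the pairs), and neither passed (adjusted p = 0.438 and 0.103 with the block). At 10 days the control level was 1.37-fold that with FGF9.

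Timp3, the inhibitor that binds to the matrix and also blocks shedding enzymes of the Adam family, was lower in all 4 pairs too. It stood at 11.37 and 11.82 in controls and 11.22 and 11.58 with FGF9 at 24 h, where the groups overlapped, and at 11.76 and 11.54 against 10.70 and 11.50 at 10 days, where they did not. The 10-day pairs differed, at -1.06 with prefix CL2 and -0.04 with AA1, and the mean of -0.55 ± 0.33 did not pass (adjusted p = 0.245 with the block). Without the AA1 pair it was -1.06, from 1 array per group. Among all genes 14.1% were lower in all 4 pairs and 14.2% were higher in all 4, as Timp1 and Mmp15 were. Timp4, Mmp2 and Mmp16 were lower in both pairs at 24 h and higher in both at 10 days, as were 7.80% of all genes, and 0 of 10 members had the opposite order, found in 5.75%.

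At 10 days Timp1 and Timp4 thus rose, with the block, while Timp2 and Timp3 stood lower without passing. Set against Timp2 within each pair, the FGF9 effect on Timp1 was larger by 1.24 and 1.43 log2 units at 24 h and by 2.20 and 3.20 at 10 days. Set against Timp3, the FGF9 effect on Timp4 was larger by 2.66 and 2.11 at 10 days but by -0.07 and -0.48 at 24 h. These are differences of effects within an array pair, not of levels between transcripts.

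Of the 4 Timp genes, 3 lie inside the span of a synapsin gene. Synapsins are proteins of synaptic vesicles in neurons, and RefSeq places Timp1 within Syn1, Timp4 within Syn2 and Timp3 within Syn3. Timp1 and Timp4 lie on the strand opposite to their hosts, and each of these genes has a feature of its own on the array. The hosts, looked up after the member values were known, went the other way from Timp1 and Timp4 at 10 days. Syn1 differed by -0.92 and -0.96 in the pairs and fell by 0.94 in the mean (adjusted p = 0.0266 with the block), and Syn2 fell by 0.95 (adjusted p = 0.0273). Syn3 stood at -1.05 and -0.89 in the pairs and missed the threshold (adjusted p = 0.0574). Of 8 neuron markers, all were lower in both 10-day pairs (30.0% of all genes) and 7 fell with the block (3.31%). With the prefix as a random effect neither Syn1 (adjusted p = 0.469) nor Syn2 (0.247) passed, and nor did any of these 7 markers, of which Slc17a6 had the smallest adjusted p (0.102).

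Among the membrane-type enzymes, Mmp16 rose at 10 days. It stood at 9.99 and 10.04 in controls and 9.98 and 9.93 with FGF9 at 24 h, a narrow range in which both FGF9 arrays lay just below both controls. At 10 days the controls stood at 9.56 and 9.27 and the FGF9 arrays at 10.37 and 10.24, above every other array. The 24 h difference was -0.06 ± 0.18. At 10 days it was 0.89 ± 0.18 (0.81 and 0.97 in the pairs), or 1.85-fold, with adjusted p = 0.0265 with the block (SE 0.13) and 0.481 without it. That call ended when either 24 h pair was left out, with the difference still 0.89, and when the AA1 pair was, with 0.81. Without the CL2 pair at 10 days the difference was 0.97. Each such fit has 1 array per group at the time of the pair left out. The 10-day controls were the lowest of the 8 arrays, and their difference from the 24 h controls, -0.59 ± 0.18, did not pass (adjusted p = 0.983; 0.292 with the block, where it was -0.49).

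Mmp15 stood at 9.81 and 9.09 in controls and 10.03 and 9.46 with FGF9 at 24 h, and at 8.96 and 9.02 against 9.28 and 10.83 at 10 days. It was higher in all 4 pairs, and the AA1 array with FGF9 was the highest of the 8. The differences were 0.30 ± 0.54 at 24 h and 1.07 ± 0.54 at 10 days (0.33 with CL2 and 1.81 with AA1), and the latter did not pass (adjusted p = 0.12 with the block). Without the CL2 pair at 10 days it was 1.81, from 1 array per group, so the size rests on the AA1 arrays.

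Mmp14 stood at 10.58 and 10.33 in controls and 10.52 and 10.63 with FGF9 at 24 h. At 10 days it stood at 10.91 and 11.14 on the CL2 arrays without and with FGF9, and at 8.60 and 9.33 on the AA1 arrays. The arrays separated by prefix rather than by treatment at 10 days. Its differences of 0.12 ± 0.85 at 24 h and 0.48 ± 0.85 at 10 days (0.23 and 0.72 in the pairs) did not pass (adjusted p = 0.842 and 0.178 with the block).

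Mmp2, the gelatinase whose precursor Mmp14 activates, varied between pairs in a similar way. It stood at 10.54 and 9.49 in controls and 10.16 and 9.05 with FGF9 at 24 h, and was lower in both pairs (-0.38 and -0.44). At 10 days it stood at 9.46 and 9.64 on the CL2 arrays without and with FGF9 and at 6.18 and 8.15 on the AA1 arrays, a difference of 0.18 in one pair and 1.97 in the other. The means of -0.41 ± 1.12 and 1.07 ± 1.12 did not pass (adjusted p = 0.727 and 0.167 with the block). Without the CL2 pair at 10 days the difference was 1.97, from 1 array per group.

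The low Mmp2 and Mmp14 values of the AA1 arrays went together with a low mean of the fibroblast, meningeal and pericyte markers. The mean of these 8 markers was 6.70 and 6.92 on the AA1 arrays and 8.72 to 9.70 on the 6 others. Col3a1, a fibrillar collagen, stood at 5.36 and 5.69 on the AA1 arrays and at 10.05 to 11.29 elsewhere. Rgs5 and Pdgfrb were not low on both AA1 arrays. There Rgs5 stood at 5.64 in the control and 7.66 with FGF9, against 6.02 to 8.20 elsewhere. Pdgfrb stood at 8.35 in the AA1 control and 7.33 with FGF9, against 8.11 to 8.76 elsewhere. With FGF9 at 10 days 3 of the 8 markers were higher in both pairs (33.2% of all genes) and 3 lower (30.0%). Rgs5, a pericyte gene, rose by 2.09 ± 0.27 (adjusted p = 0.0107 in limma with the block). Pdgfrb, the other pericyte gene of the list, stood at -0.55 and -1.02 in the pairs and did not pass (adjusted p = 0.0542). Their part in the Mmp2 and Mmp14 values was not tested.

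**Figure D3:**
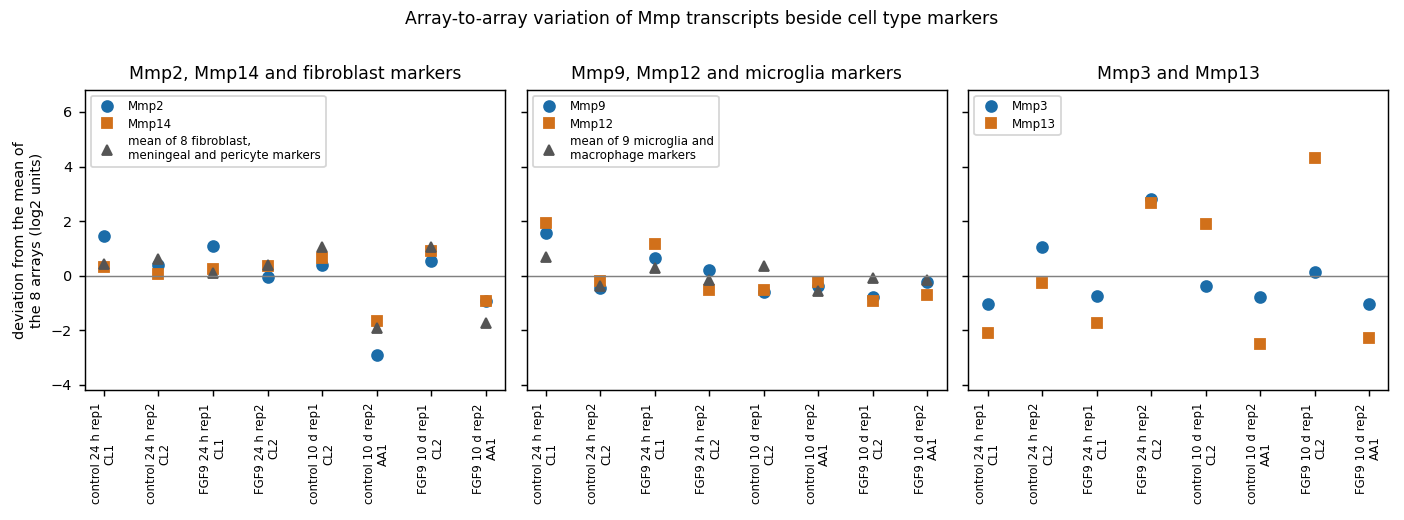
Deviation from the mean of the 8 arrays in log2 units (vertical axis) on each array (horizontal axis, with its prefix) for Mmp2 and Mmp14 beside the mean of 8 fibroblast, meningeal and pericyte markers, Mmp9 and Mmp12 beside the mean of 9 microglia and macrophage markers, and Mmp3 beside Mmp13. The AA1 arrays are low in the left panel, with and without FGF9. In the middle one the CL1 arrays hold the highest Mmp9 and Mmp12 values. The marker mean of the CL1 array with FGF9 lies below that of the CL2 control at 10 days.

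Mmp3 and Mmp9 are the stromelysin and the gelatinase associated with inflammation. Mmp3 lay below the array's 25th percentile on 2 of 8 arrays and above its median on the CL2 arrays at 24 h. It stood at 5.29 and 7.36 in controls and 5.58 and 9.12 with FGF9 at 24 h. At 10 days it stood at 5.94 and 5.55 against 6.44 and 5.28. The high values were those of the CL2 pair at 24 h, and the groups overlapped at both times. The differences were 1.02 ± 1.23 at 24 h (0.29 and 1.76 in the pairs; adjusted p = 0.354 with the block) and 0.11 ± 1.23 at 10 days, and neither passed.

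Mmp9 lay below the 25th percentile on 5 of 8 arrays. It stood at 7.21 and 5.18 in controls and 6.27 and 5.84 with FGF9 at 24 h, and at 5.05 and 5.26 against 4.85 and 5.38 at 10 days. The pairs went in opposite directions at both times, with means of -0.14 ± 0.63 and -0.04 ± 0.63 (adjusted p = 0.914 and 0.97 with the block). The highest Mmp9 values were those of the CL1 arrays, where the mean of 9 microglia and macrophage markers was 9.10 in the control and 8.71 with FGF9, against 7.85 to 8.78 on the 6 others. Their part in the result was not tested.

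Between the times, members were compared within control and within FGF9 cultures, with the limit that time and prefix coincide except for CL2. With the block the change of level between the times thus comes from the CL2 arrays, with 1 pair at each time. The FGF9 effects that split it into control and FGF9 come from all pairs. The SE and p of a time difference hold no spread in level between pairs of the same time. In controls 0 members passed, with and without the block (0.00689% of all genes with it, 0% without), and at an unadjusted p under 0.05 in limma lay 1 member and 415 of all genes without the block and 2 members and 1990 of all genes with it. In FGF9 cultures 2 members passed with the block, beside 11.0% of all genes, and 0 without it (0% of all genes; 1 member and 1430 of all genes at an unadjusted p under 0.05). Timp4 rose by 2.40 ± 0.23 (SE with the block; adjusted p = 0.0119). Mmp3 fell by 2.51 ± 0.45 (adjusted p = 0.0253), but without the block the difference was -1.49 ± 1.23 (adjusted p = 0.779), and with the random effect only Timp4 of the members passed. Within prefix CL2, whose arrays also enter the difference with the block, Mmp3 was lower at 10 days in controls as well (-1.42, against -2.68 with FGF9).

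The other Mmps of the array followed no single direction. Of 16 listed, 15 were measured, and 0 passed at 24 h in limma in either fit (1 at an unadjusted p under 0.05 without the block, 2 with it). At 10 days 1 rose with the block, Mmp19, which degrades basement membrane components, by 0.84 ± 0.24 (0.81 and 0.87 in the pairs; adjusted p = 0.049), a call that ended with the prefix as a random effect (0.0758). It stood at 8.48 and 8.51 in controls and 9.30 and 9.38 with FGF9. Mmp11, a stromelysin, was higher in both pairs at both times, by 1.03 ± 0.42 and 1.04 ± 0.42, without passing (adjusted p = 0.237 and 0.0774 with the block). Mmp24, a membrane-type enzyme of neurons, differed by -0.51 ± 0.42 at 10 days and did not pass (adjusted p = 0.0836 with the block). Of these 15, 6 (Mmp1, Mmp7, Mmp8, Mmp10, Mmp20 and Mmp21) were below the 25th percentile on all 8 arrays. Mmp3 belongs to a run of 10 Mmp genes on chromosome 8 in RefSeq, of which 9 are on the array.

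Genes around the Mmp system were taken from 4 further lists, in which 0 genes passed in limma at 24 h in either fit and 0 at 10 days without the block. At an unadjusted p under 0.05 with the block there were 2 of 19, 4 of 19, 8 of 23 and 12 of 27 at 24 h, in the order given here, against 12.4% of all genes. The calls below are those of the fit with the block, beside 3.12% of all genes that rose and 3.31% that fell. With the prefix as a random effect (estimated correlation 0.654) some of them ended, as given for each list. In the plasminogen system, whose proteases activate Mmp precursors, 1 of 19 measured genes rose with the block at 10 days and 1 fell. Serpine2, an inhibitor of thrombin and plasminogen activators made by glia, rose by 1.07 ± 0.23 (adjusted p = 0.0291), and Serpini1, neuroserpin, fell by 0.90 (SE 0.51 without the block; adjusted p = 0.0419). With the random effect Serpine2 passed (adjusted p = 0.0471) and Serpini1 did not (0.123). The list's median was 0.05, beside 0.02 over all genes.

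Among other inhibitors, carriers and docking partners 4 of 19 rose and 1 fell. Lcn2, a secreted protein that binds Mmp9, rose by 3.44 ± 0.29 (adjusted p = 0.0124). Cd44, the hyaluronan receptor on which Mmp9 and Mmp14 dock, rose by 2.38 ± 0.76 (adjusted p = 0.0173), from 10.04 and 8.00 in controls to 12.17 and 10.62. The membrane proteases Adam9 and Adam15 rose by 1.17 ± 0.26 and 1.03 ± 0.24, and the matrix proteoglycan gene Spock3 fell by 1.15 (SE 0.48). With the random effect Cd44 (adjusted p = 0.054), Adam15 (0.0667) and Spock3 (0.111) did not pass, while Lcn2 and Adam9 did. Reck, a membrane-anchored Mmp inhibitor, stood at -0.48 ± 0.42 and -0.40 ± 0.42 at the 2 times, and Lrp1, which clears Mmps from the cell surface, at -0.50 ± 0.26 and -0.11 ± 0.26, without passing. The list's median was -0.29 at 24 h and 0.06 at 10 days.

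Of 23 measured substrates 3 rose and 0 fell at 10 days with the block. Ncan, the brain proteoglycan neurocan, rose by 1.77 ± 0.48 (adjusted p = 0.0143), Cspg4, the proteoglycan of oligodendrocyte precursors and pericytes, by 1.70 ± 0.53 (adjusted p = 0.0143), and Lama5, a laminin chain of basement membranes, by 1.19 ± 0.33 (adjusted p = 0.022). With the random effect Lama5 did not pass (adjusted p = 0.054). The median was -0.12 at 24 h and 0.23 at 10 days.

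Among 27 measured regulators, the list that includes the AP-1 and ETS factors whose motifs were searched above, 8 rose and 0 fell at 10 days with the block. The ETS genes Etv4, Etv5, Etv1 and Elk3 rose by 2.50 ± 0.19, 2.29 ± 0.43, 1.32 ± 0.28 and 0.81 ± 0.48. The AP-1 genes Fosl1 and Junb rose by 1.46 ± 0.31 and 0.72, and the cytokine pathway genes Socs3 and Osmr, feedback inhibitor and oncostatin M receptor, by 1.85 ± 0.24 and 1.43 ± 0.39. Their adjusted p with the block ran from 0.0065 (Etv4) to 0.0421 (Junb). With the random effect Elk3 (adjusted p = 0.181) and Junb (0.0796) did not pass. Not all genes of these families rose. Ets1 and Ets2 stood at -0.14 and -0.46 at 10 days, and Fos, Fosl2, Jun and Jund at 0.74, 0.41, 0.53 and -0.09, without passing. At 10 days 17 of the 27 were higher in both pairs and 3 lower in both, against 33.2% and 30.0% of all genes. At 24 h 18 of the 27 were higher in both pairs, without a call, against 31.8% of all genes, and the median was 0.28, against 0.44 at 10 days and 0.02 over all genes at 10 days.

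**Figure D4:**
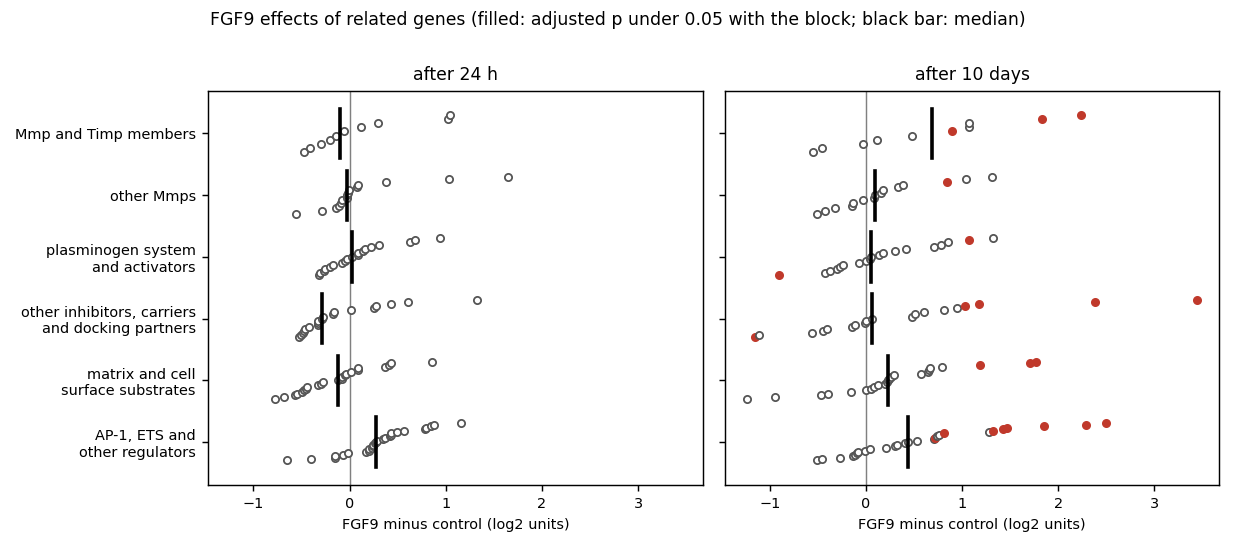
FGF9 minus control in log2 units (horizontal axis) for the 10 members and the genes of 5 related lists after 24 h (left) and 10 days (right); 1 circle per gene, filled where the adjusted p was under 0.05 with the prefix as a block, with a black bar at each list's median. No circle is filled at 24 h, and at 10 days 3 members and 8 regulators are.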

How the data were processed

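Total RNA samples of the cultures were hybridised to 8 Affymetrix Rat Gene 1.0 ST arrays. The authors' tools were Partek 6.5 and GCRMA (which corrects background and summarises probes), per the submitters' processing notes. The deposited table holds 29214 features in log2 units, a scale read from the values and not stated in the labels, and the values were used as deposited. Of these features 15310 had 1 gene symbol, 323 several and 13581 none. Features with 1 symbol were kept and the feature with the highest mean was taken for each gene (14506 genes). Gene neighbours, strands and promoters came from RefSeq (GRCr8), and 15279 features matched its gene table by Entrez identifier. The number of arrays, 2 per group, limits the precision.

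Each gene's 4 group means were modelled jointly (limma 3.58.1 in R 4.3.3, lmFit then eBayes; 4 residual degrees of freedom), with p-values adjusted over all 14506 genes by Benjamini-Hochberg with a threshold of 0.05. Errors are standard errors of that fit unless the block is named, and folds are 2 raised to the log2 difference. The alternative with the array prefix as a fixed block had 2 residual degrees of freedom. Same-numbered arrays deviated together from their group means, with correlations of 0.757 (24 h) and 0.819 (10 days) across genes. The scripts were tested on simulated data. The members, lists, motifs and tests were chosen with earlier results of these data known. Named genes are the 10 members and, from each list and FGF9 comparison, those that passed in either fit (at most 6, largest first), filled to 3 by the smallest p with the block, and the listed cell type markers. Of these markers, those named singly were picked after their values were seen. Junb, Ets1, Ets2, Fos, Fosl2, Jun, Jund, Mmp13, Syn1, Syn2 and Syn3 lie outside that rule and were named after their values were seen. Alternatives were the block, the prefix as a random effect, leaving out arrays or pairs, quantile normalization, array medians subtracted, a filter on low features, the mean of a gene's features, a trended prior and the 4 arrays of each time alone.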

Additional observations from a re-analysis of the deposited data

Results flagged for a closer look

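Among the 10 members and the genes that the naming rule took from the 5 lists, 9 had both pairs on one side of 0 at 24 h and on the other at 10 days. The lists' other genes and the marker lists were not screened for this; Mbp and Dcn, listed as substrates, had the same order as Timp4. This pattern in either direction is a count on 2 pairs, and limma's test of the difference between the FGF9 effects passed for none of the 9 with the block. Lower at 24 h and higher at 10 days, as were 7.80% of all genes, stood 3 members: Timp4 with a difference of effects of 2.31 (adjusted p = 0.109), Mmp2 with 1.48 (adjusted p = 0.353) and Mmp16 with 0.95 (adjusted p = 0.237). For Mmp16 the 24 h pairs were close to 0, at -0.00 and -0.11. For Mmp2 the difference rests on the AA1 pair, at 1.97 against 0.18 in the other 10-day pair.

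Among the genes named from the lists the same order was found for Lcn2 with 3.61 (adjusted p = 0.0965), Adam15 with 1.20 (adjusted p = 0.246), and the perineuronal net genes Bcan with 1.56 (adjusted p = 0.239) and Tnr with 1.14 (adjusted p = 0.226). The opposite order, higher at 24 h and lower at 10 days, found in 5.75% of all genes, was that of Tfpi2, an inhibitor of plasmin and Mmp activation, with -1.10 (adjusted p = 0.252) and of Mmp27 with -0.41 (adjusted p = 0.516). Mmp27 lay below the 25th percentile on 7 of 8 arrays. Tfpi2 lay below it on both FGF9 arrays at 10 days, at 5.21 and 5.32 against percentiles of 5.54 and 5.43. On the pair 2 controls it did so too, at 5.02 against 5.42 (24 h) and 5.47 against 5.48 (10 days).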

How the results depend on the processing

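Without a block, 0 members and 0 genes passed in any FGF9 comparison under quantile normalization, subtracted array medians, the filter on low features (which dropped Mmp9), the mean of a gene's features, the trended prior, the 4 arrays of a time alone and each array left out. The block decided the calls. At 10 days it called 933 genes and 3 members, the random effect 151 and 3, the block after quantile normalization 989 and 3; leaving pairs out of the block fit, chosen after seeing the data like that combination, gave 469 and 2 without either 24 h pair, 1506 and 5 without the CL2 pair at 10 days (Mmp2, Mmp15, Mmp16, Timp1 and Timp4) and 569 and 3 without the AA1 pair (Timp1, Timp3 and Timp4). Timp1 and Timp4 passed in all of these. At 24 h the block called 0, and 237 genes and 1 member (Timp1, adjusted p = 0.0289) without either 10-day pair. For the difference of effects it called 7 genes, the random effect 4, the block after quantile normalization 7, and with pairs left out 322 genes and 4 members (without the CL2 pair at 10 days: Mmp2, Mmp15, Timp1 and Timp4), 9 (without AA1) and 1 (without CL1). Between times in controls the block called 1 gene, and in FGF9 cultures 1589 genes and 2 members, against 209 and 1 with the random effect. With the block these calls take the change of level between the times from the CL2 arrays, with 1 pair at each time, and the FGF9 effects from all pairs.

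Signs of small differences turned. With each array left out in turn, the 24 h differences ran from -0.96 to 0.15 for Mmp2, -0.75 to 2.80 for Mmp3, -1.15 to 0.87 for Mmp9, -0.0071 to 0.24 for Mmp14, -0.062 to 0.65 for Mmp15 and -0.42 to 0.0235 for Timp3. At 10 days they ran from -0.57 to 2.71 for Mmp2, -0.47 to 0.69 for Mmp3, -0.30 to 0.23 for Mmp9 and -0.68 to 1.63 for Mmp14. For the difference of effects they ran from -0.16 to 3.12 for Mmp2, -2.68 to 0.86 for Mmp3, -0.91 to 1.12 for Mmp9, -0.79 to 1.52 for Mmp14, -0.0027 to 1.55 for Mmp15 and -0.75 to 0.0461 for Timp3. Subtracting array medians made Mmp9 0.0133 at 10 days. With the block and a pair left out, Mmp9 was 0.66 (24 h) and -0.69 (difference of effects) without CL1, 0.13 at 10 days without CL2, and -0.0574 (difference of effects) without AA1; without the CL2 pair at 10 days Mmp3 was -0.27 at 10 days and Timp3 0.16 for the difference of effects; without the CL2 pair at 24 h Mmp14 was -0.0631 at 24 h. Timp1, Timp2, Timp4 and Mmp16 kept their signs in both FGF9 comparisons under every alternative run. Beyond the fewer arrays in each fit, the cause was not tested. A group left with 1 array is assumed to vary like the others, and 5 of 8 Mmp9 values lay below the 25th percentile.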

Other observations

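Mmp13, a collagenase next to Mmp12 on chromosome 8, was high only on arrays with prefix CL2 and was singled out after its values were seen. It stood at 7.01 in the control and 9.93 with FGF9 at 24 h, and at 9.19 and 11.59 at 10 days, while the 4 other arrays lay between 4.76 and 5.55. With FGF9 it was thus higher by 2.92 and 2.40 in the CL2 pairs, against 0.37 with CL1 and 0.22 with AA1. Mmp3 was also highest on CL2 arrays at 24 h. At 10 days its CL2 values of 5.94 and 6.44 were lower, though still above its CL1 and AA1 values of 5.28 to 5.58.

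Mmp12, the macrophage elastase, was, like Mmp9, highest on the CL1 arrays. It stood at 7.99 in the control and 7.22 with FGF9 on the CL1 arrays and between 5.14 and 5.86 on the 6 others. It was lower with FGF9 in all 4 pairs (-0.78, -0.33, -0.38 and -0.47) without passing in limma (adjusted p = 0.278 and 0.18 with the block), whereas Mmp9 was higher with FGF9 in pair 2 at both times (0.66 and 0.13).

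Ctsk, the collagen-degrading cathepsin K, was low on the AA1 arrays, as Mmp2 and Mmp14 were. It stood at 5.88 and 5.62 there and between 7.44 and 10.07 on the 6 others. The FGF9 differences were -0.30 ± 1.91 and -0.27 ± 1.91 and did not pass.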
